A study of Mus musculus with 3 samples.

Results

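The data were single-cell expression values from mouse mitral valve, deposited as 1 matrix in which the authors had pooled their libraries. The genes described here were 7 of the 3264 genes with a value in every cell: Sulf1, Sulf2, Hs6st1 and Ext2, which build or edit heparan sulfate, Sdc4, which carries it, and Cd44 and Tnfaip6, which bind hyaluronan. They were picked by name for what they do, and all 7 were found in the matrix. The 3 samples listed with the matrix were mgR animals aged 12 weeks, homozygous for a hypomorphic fibrillin-1 allele and labelled B6.129-Fbn1tm2Rmz/J. The study describes a single-cell experiment in wild-type and mgR mice, and a single-nucleus experiment in wild-type mice, mgR mice and mgR mice given rapamycin. Barcodes name neither mouse, genotype, treatment nor library, so all of them entered as 1 sample, without a comparison of genotypes, a spread between animals or a test. The word cells stands here for barcodes of cells or of nuclei.

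Heparan sulfate is a sugar chain attached to proteoglycans of the cell surface and matrix, and its pattern of sulfate groups decides which growth factors it binds. Ext2 is a subunit of the polymerase that lengthens the chain, Hs6st1 adds sulfate to its glucosamine units, and the extracellular enzymes encoded by Sulf1 and Sulf2 take such groups off again. Sdc4 encodes syndecan-4, a transmembrane proteoglycan of cell adhesions. Hyaluronan is an unsulfated chain that holds water in the loose layer of valve leaflets. CD44 is its main cell-surface receptor, and the secreted product of Tnfaip6 binds hyaluronan and transfers heavy chains of inter-alpha-inhibitor to it.

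In the GENCODE M21 annotation of GRCm38, Sulf1 (ENSMUSG00000016918) lies on chromosome 1 from base 12692277 to base 12861192, on the plus strand. Hs6st1 (ENSMUSG00000045216) lies on the same chromosome and strand from 36068400 to 36106446. The other 5 genes lie on chromosome 2. Tnfaip6 (ENSMUSG00000053475) is on its plus strand from 52038009 to 52056686. On the minus strand, Ext2 (ENSMUSG00000027198) spans 93661028 to 93822568 and Cd44 (ENSMUSG00000005087) spans 102811141 to 102901665. Also there are Sdc4 (ENSMUSG00000017009), from 164424247 to 164443887, and Sulf2 (ENSMUSG00000006800), from 166073089 to 166155663. An exon of Sulf2 overlaps Ncoa3, an exon of Ext2 overlaps Alx4 and an exon of Hs6st1 overlaps Gm37335, each on the opposite strand. No other gene of the annotation overlaps an exon of the other 4.

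The bases just before the starts of 3 genes are printed for the contrasts they carry below: Sulf2, higher in endothelial cells than in fibroblasts, and Cd44 and Tnfaip6, higher in fibroblasts than in endothelial cells. They are RefSeq promoter windows of build GRCm38.p6, read 5′ to 3′ on the gene's own strand and cut off at the gene's start in GENCODE, and capitals mark matches, on either strand, to the motifs searched. The search used TATAA for the TATA box, TGANTCA for the AP-1 site, CACGTG for the E-box and GGGCGG for the GC box. It also used CCGGAAG for ETS factors, GGGANTTCC for NF-kB and AGATAA for GATA factors, and none of the matches printed overlapped another. The windows are chr2:166155684-166155933 on the minus strand for Sulf2, chr2:102901666-102901915 on the minus strand for Cd44 and chr2:52037863-52038008 on the plus strand for Tnfaip6.
Sulf2: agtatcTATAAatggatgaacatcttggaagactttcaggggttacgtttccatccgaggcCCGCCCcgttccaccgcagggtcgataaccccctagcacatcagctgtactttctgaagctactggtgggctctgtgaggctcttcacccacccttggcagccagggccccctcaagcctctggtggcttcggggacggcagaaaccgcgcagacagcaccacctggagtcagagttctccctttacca
Cd44: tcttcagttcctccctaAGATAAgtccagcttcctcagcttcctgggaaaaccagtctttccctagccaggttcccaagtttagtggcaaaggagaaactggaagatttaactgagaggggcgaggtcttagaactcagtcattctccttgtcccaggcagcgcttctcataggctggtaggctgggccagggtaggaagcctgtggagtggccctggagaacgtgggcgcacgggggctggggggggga
Tnfaip6: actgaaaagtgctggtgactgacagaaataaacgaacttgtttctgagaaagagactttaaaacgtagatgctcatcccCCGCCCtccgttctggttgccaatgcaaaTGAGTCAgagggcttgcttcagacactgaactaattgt
The 146 bases of Tnfaip6 held 1 AP-1 match and 1 GC box, which 3.86% and 16.1% of the same stretch of all 32851 promoters held. In the 250 bases of Cd44 the 1 match was to GATA, found in 9.99% of all promoters, and those of Sulf2 held a TATA box match and a GC box, found in 22.8% and 32.7%. A match is a description of the letters, and the matrix holds no measurement of binding.

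Cells were grouped by marker UMIs, a UMI being 1 tagged transcript. Fibroblasts had UMIs of at least 2 of Prrx1, Col3a1 and Dpt and none of Egfl7, and numbered 3149 cells, 19.2% of 16383. Endothelial cells had Egfl7 and fewer than 2 of those genes, and numbered 8966 (54.7%). Ptprc cells, with the leukocyte gene that encodes CD45 and neither of the other patterns, numbered 470 (2.87%). A further 421 cells had both the fibroblast pattern and Egfl7, and 3377 met no rule. Of the marker lists, 7 of 15 endothelial genes were in the matrix and summed to 23.7 UMIs per 10000 UMIs in endothelial cells, 1.87 in fibroblasts and 2.11 in Ptprc cells. They include Egfl7 of the rule, which gave 7.19 of the 23.7 and is 0 in the other groups by construction. The 8 of 11 leukocyte genes in the matrix summed to 45.4 in Ptprc cells, 0.510 in fibroblasts and 0.539 in endothelial cells. They include Ptprc of the rule, with 15.9 of the 45.4. The 3 of 8 fibroblast genes in the matrix are those of the rule. The 3 neutrophil genes were at 0 in fibroblasts and Ptprc cells and had 6 UMIs in endothelial cells. The 4 of 6 cardiomyocyte genes in the matrix summed to 1.52 in endothelial cells, 0.111 in fibroblasts and 0.317 in Ptprc cells. The 2 of 6 melanocyte genes summed to 0.310 in fibroblasts, 0.0630 in endothelial cells and 0.0906 in Ptprc cells. For the 3 of 6 mural cell genes the sums were 0.108, 0.00279 and 0.00823 in the same order.

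A cell had 503 to 23127 UMIs, with a median of 6063 in fibroblasts, 5366 in endothelial cells and 4851 in Ptprc cells. The barcodes follow the alphabet in 2 stretches, called runs here. They held 14222 and 2161 cells with median totals of 5154 and 6918 UMIs, and shared 11 barcodes. What the runs stand for is not labelled, and their values are given side by side. A level is a gene's summed UMIs in a group divided by all UMIs of that group, times 10000. Each level and ratio has a 95% interval, which covers counting error only and not differences between animals. A gene was counted as higher or lower where the ratio of 2 levels was at least 2 or at most 0.5, among genes with at least 100 UMIs over both groups.

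Between fibroblasts and endothelial cells, 5 of the 7 genes differed at least 2-fold. Cd44 and Tnfaip6 were higher in fibroblasts, while Sulf1, Sulf2 and Sdc4 were higher in endothelial cells. The Sulf1 and Sdc4 ratios were under 2 in the second barcode run. Ext2 and Hs6st1, which build and sulfate the chain, had nearly equal levels. In counts, 2 of 7 were at least 2-fold higher in fibroblasts, as were 17.1% of all 2386 genes with enough UMIs, and 3 of 7 were at least 2-fold lower, as were 14.7%. In both directions together, 5 of 7 stood beside 31.8% of all genes. Tnfaip6 had enough UMIs only through fibroblasts, here and in the comparison of fibroblasts with Ptprc cells. Against Ptprc cells, fibroblasts were higher in Sulf1 and Tnfaip6 and lower in Sulf2, Hs6st1 and Cd44, 5 of 7 beside a background of 38.5% of 2061 genes, 22.6% higher and 15.9% lower. Endothelial cells were higher than Ptprc cells in Sulf1 and Sulf2 and lower in Hs6st1 and Cd44, 4 of the 6 genes with enough UMIs beside 35.8% of 2237 genes, 19.3% higher and 16.5% lower.

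**Figure D1:**
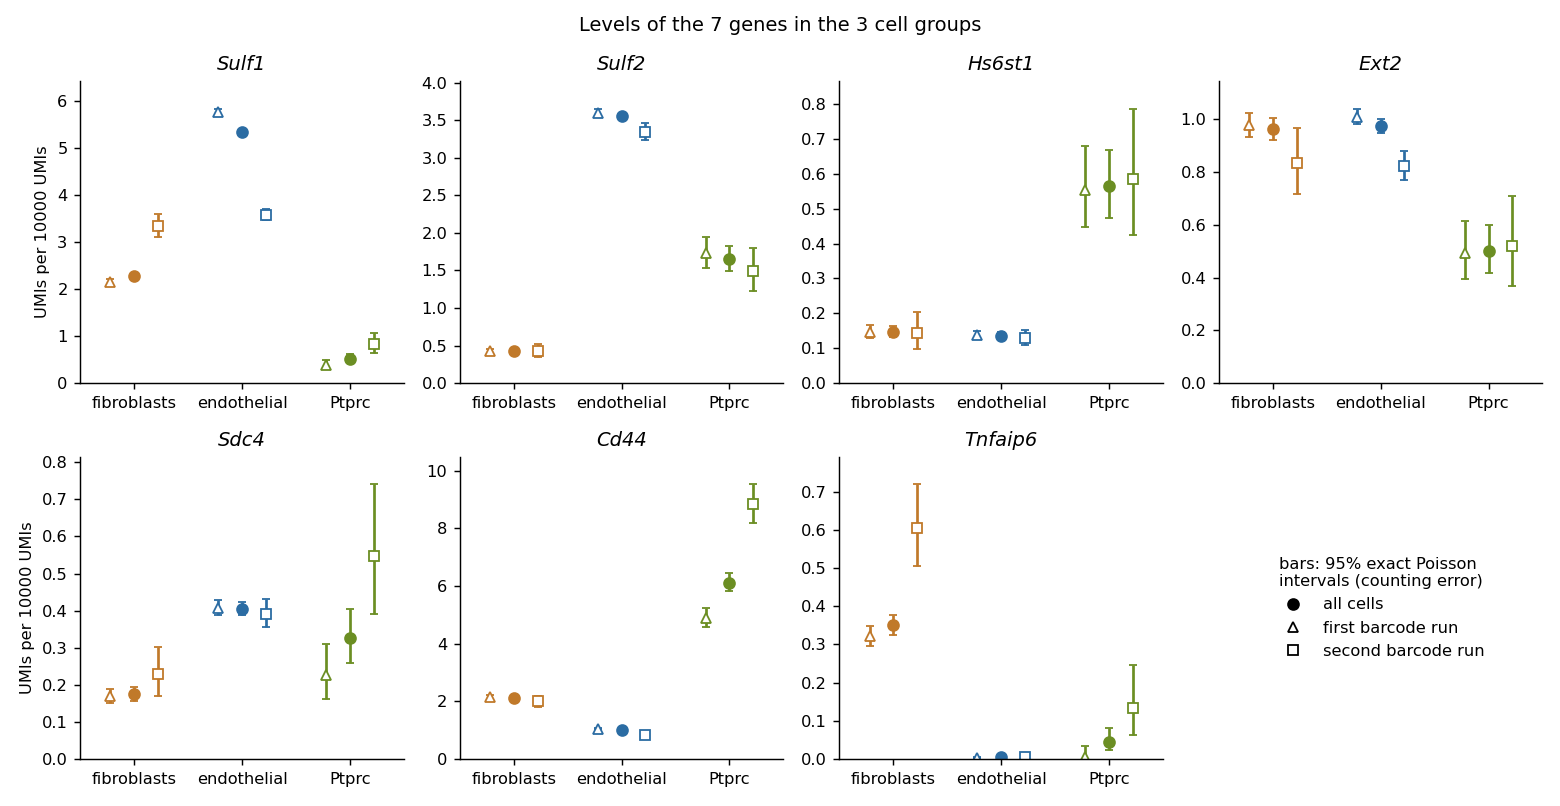
Level of each gene (UMIs per 10000 UMIs, vertical axes from 0) in fibroblasts, endothelial cells and Ptprc cells, over all cells (filled circles) and in the first and second barcode run (open triangles and squares), with 95% exact Poisson intervals. Sulf2 and Sdc4 were highest in endothelial cells over all cells, Hs6st1 and Cd44 in Ptprc cells and Tnfaip6 in fibroblasts, and the Sulf1 values of fibroblasts and endothelial cells came close to each other in the second run.

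**Figure D2:**
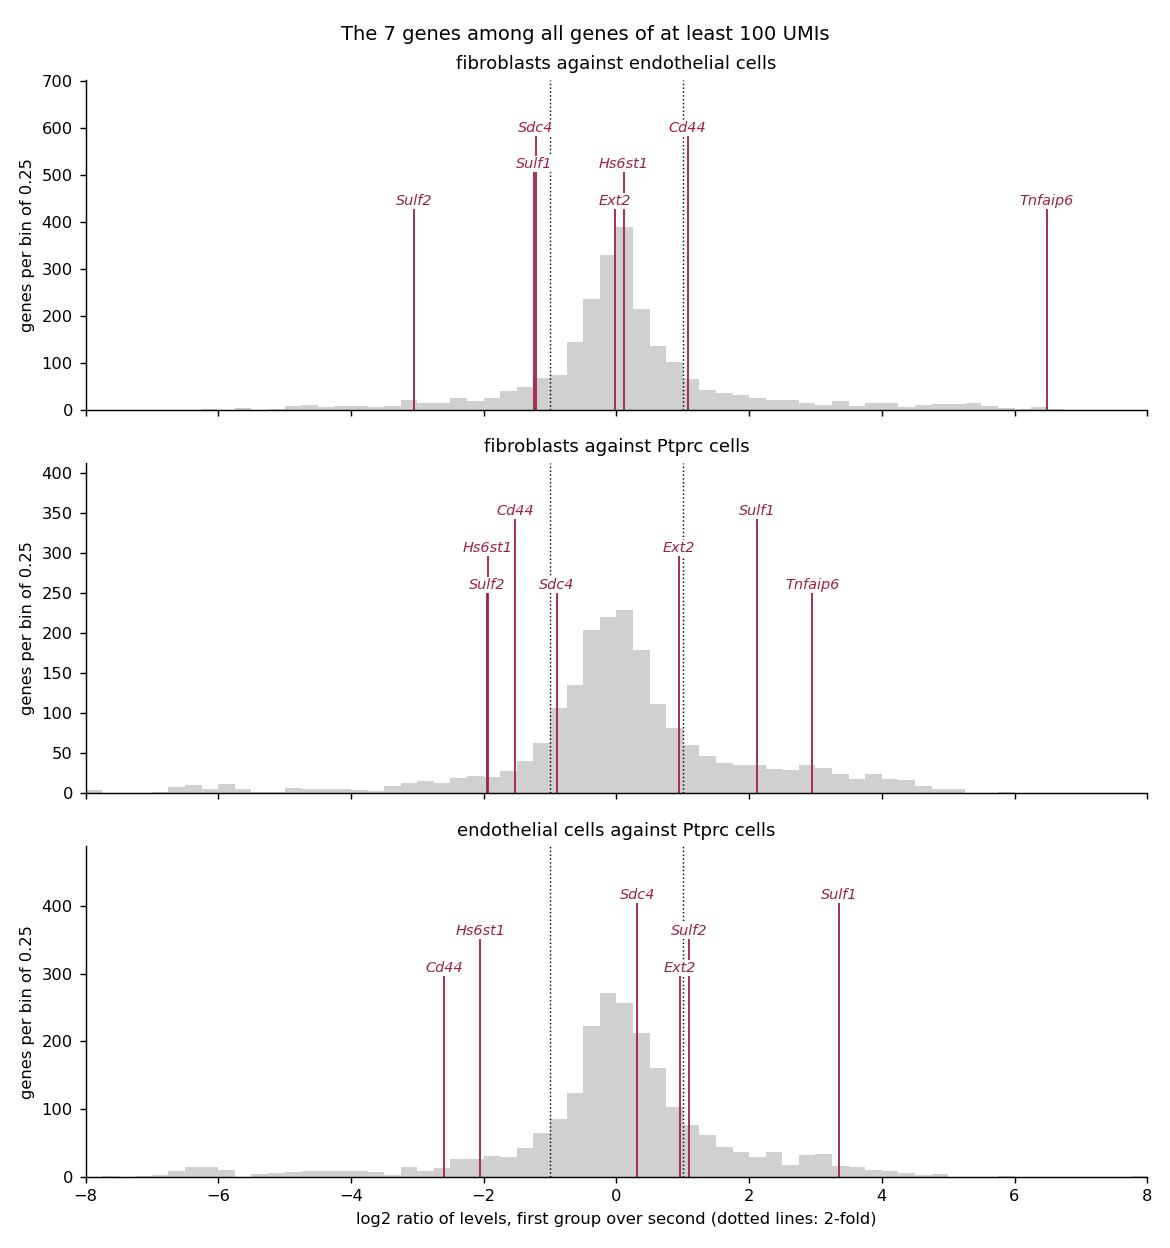
Number of genes (vertical axis, bins of 0.25) by log2 ratio of levels (horizontal axis) in the 3 comparisons of cell groups, with the position of each of the 7 genes that had at least 100 UMIs drawn as a line and 2-fold differences dotted. Tnfaip6 stood at 6.49 on the log2 scale between fibroblasts and endothelial cells, and Ext2 and Hs6st1 stood at -0.02 and 0.11, in the middle of all genes.

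The chain polymerase gene had closely similar levels in fibroblasts and endothelial cells. Ext2 had 0.962 UMIs per 10000 UMIs in fibroblasts (0.92 to 1.0) and 0.974 in endothelial cells (0.947 to 1.0), and the ratio of endothelial cells to fibroblasts, 1.01 with an interval of 0.961 to 1.07, included 1. In Ptprc cells it was 0.502 (0.417 to 0.60), and the other groups stood 1.92-fold and 1.94-fold above that. Both ratios fell just under the 2-fold mark. Among the endothelial subsets described below, the ratio of its highest level to its lowest was 1.17.

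Hs6st1 was sparse, with 1411 UMIs in all cells, and was highest in Ptprc cells. Its level there was 0.564 (0.474 to 0.667), against 0.147 (0.131 to 0.165) in fibroblasts and 0.136 (0.127 to 0.147) in endothelial cells. Ptprc cells were 3.83-fold above fibroblasts (3.11 to 4.7) and 4.14-fold above endothelial cells (3.42 to 4.97), and in each barcode run alone the ratios lay between 3.75 and 4.52. The intervals of fibroblasts and endothelial cells overlapped.

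Among the heparan sulfate genes, Sulf2 had the largest ratio between fibroblasts and endothelial cells. Endothelial cells had 3.55 UMIs per 10000 UMIs (3.50 to 3.60), Ptprc cells 1.66 (1.5 to 1.83) and fibroblasts 0.430 (0.402 to 0.459). No interval overlapped another. Endothelial cells stood 8.26-fold above fibroblasts (7.72 to 8.84), with 8.37-fold in the first barcode run and 7.81-fold in the second, which placed it at percentile 3.56 of all genes with enough UMIs, ordered from endothelial to fibroblast. Ptprc cells stood 3.85-fold above fibroblasts (3.41 to 4.33) and 2.14-fold below endothelial cells (1.94 to 2.37), or 1.85-fold where cells with markers of several kinds were kept.

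Sulf1, which encodes the other sulfatase, was shared by fibroblasts and endothelial cells and low in Ptprc cells. Its level was 5.34 in endothelial cells (5.27 to 5.40), 2.27 in fibroblasts (2.20 to 2.33) and 0.523 in Ptprc cells (0.436 to 0.622). Endothelial cells were 2.36-fold above fibroblasts over all cells (2.28 to 2.43), but this rested on the first barcode run. There the levels were 5.76 and 2.14, a ratio of 2.69, and in the second run they were 3.57 and 3.34, a ratio of 1.07 with an interval of 0.986 to 1.16 that included 1. Against Ptprc cells, fibroblasts were 4.33-fold higher (3.63 to 5.21), with 5.62-fold and 3.98-fold in the first and second run. Where cells with markers of several kinds were kept in the groups, the ratio was 1.70, with Sulf1 at 1.41 in Ptprc cells.

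Sdc4 was low in each of the 3 groups and highest in endothelial cells. Its level was 0.405 in endothelial cells (0.388 to 0.422), 0.325 in Ptprc cells (0.258 to 0.405) and 0.175 in fibroblasts (0.157 to 0.193). The first 2 overlapped, and their order turned between runs, with Ptprc cells at 0.226 in the first run and 0.546 in the second. Endothelial cells were 2.32-fold above fibroblasts (2.07 to 2.6), and 1.72-fold in the second run (1.27 to 2.36).

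Cd44 was highest in Ptprc cells, next in fibroblasts and lowest in endothelial cells. The levels were 6.12 (5.81 to 6.44), 2.13 (2.07 to 2.19) and 1.01 (0.984 to 1.04), with no overlap. Ptprc cells were 2.87-fold above fibroblasts (2.71 to 3.05) and 6.05-fold above endothelial cells (5.71 to 6.41). In Ptprc cells the level was 4.90 in the first run and 8.83 in the second, while in fibroblasts it was 2.15 and 2.0. Fibroblasts were 2.11-fold above endothelial cells (2.03 to 2.19), close to the 2-fold mark. The ratio was 1.96 per UMIs of the listed genes alone, 1.95 where cells with markers of several kinds were kept, and 1.56 with groups taken from clusters. A leukocyte gene was also detected in some of these cells, as 74 fibroblasts and 163 endothelial cells had a Ptprc UMI, and without them fibroblasts had a Cd44 level of 2.11 and endothelial cells of 0.962.

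Of the 3 groups, fibroblasts held nearly all Tnfaip6 UMIs. Fibroblasts had 733 UMIs, a level of 0.351 (0.326 to 0.377), against 21 UMIs and a level of 0.00390 (0.00242 to 0.00597) in 8966 endothelial cells. The ratio was 89.8 (58.3 to 146), at percentile 99.8 of all genes, with 87.1 in the first barcode run and 126 in the second. Ptprc cells had 11 UMIs, a level of 0.0453 (0.0226 to 0.0810), of which 1 was in the first run and 10 in the second. Fibroblasts were 7.74-fold above them (4.3 to 15.6). Within fibroblasts the level was 0.321 in the first run and 0.606 in the second, and the intervals did not overlap.

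Shares of cells, which do not weight cells by their UMIs, gave the same order of groups for Tnfaip6, Sulf2 and Cd44. With each cell thinned to 2000 UMIs, 4.97% of fibroblasts had a Tnfaip6 UMI (4.23% to 5.80%, 152 of 3057 cells), against 0.107% of endothelial cells (9 of 8403) and 0.481% of Ptprc cells (2 of 416). Sulf2 was found in 45.0% of endothelial cells, 20.2% of Ptprc cells and 7.1% of fibroblasts. Cd44 was found in 44.7% of Ptprc cells, 26.8% of fibroblasts and 10.9% of endothelial cells. Sulf1 was found in 34.9% of endothelial cells and 28.5% of fibroblasts, against 4.33% of Ptprc cells. Without thinning, 46.8% of endothelial cells and 50.5% of fibroblasts had a Sulf1 UMI, the opposite order. Ext2 was found in 17.7%, 16.9% and 11.3% of fibroblasts, endothelial cells and Ptprc cells, Hs6st1 in 2.91%, 2.70% and 8.41%, and Sdc4 in 3.34%, 6.37% and 6.49%.

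**Figure D3:**
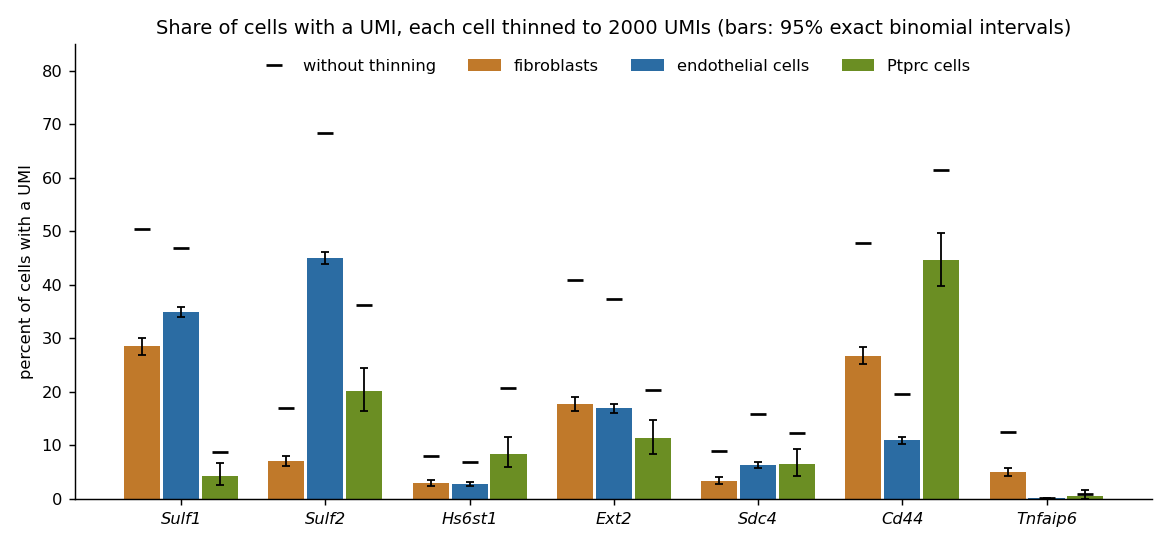
Percent of cells with a UMI of each gene (bars from 0) in fibroblasts, endothelial cells and Ptprc cells, each cell thinned to 2000 UMIs, with 95% exact binomial intervals, and the share without thinning as a dash. Tnfaip6 reached 4.97% of fibroblasts and 0.107% of endothelial cells, and thinning turned the order of fibroblasts and endothelial cells for Sulf1.

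In endothelial cells, Cd44 UMIs were more frequent among cells that also had a Sulf1 UMI. At 2000 UMIs a cell, 18.9% of endothelial cells with a Sulf1 UMI had a Cd44 UMI, against 6.67% of those without, and 52.8% had Sulf2, against 40.9%. For Sdc4 the shares were 8.49% and 5.23%. In Tmem163 or Kcnh1 cells Sdc4 was reversed, at 9.41% with Sulf1 and 11.7% without, and Sulf2 was at 57.2% and 50.7%. In the other subsets both were more frequent with Sulf1. Cd44 was also found in 20.6% of endothelial cells with Sdc4, against 10.3% without, but in 23.6% of each in Tmem163 or Kcnh1 cells. The Cd44 gap by Sulf1 was also seen within subsets. It was 29.9% against 13.9% in Tmem163 or Kcnh1 cells and 13.9% against 3.97% in Prox1 or Kif26b cells. In Selp or Fmo2 cells the shares were 11.0% and 6.65%, and cells with both genes were 1.37 times as many as the product of the shares gives, with an interval of 0.993 to 1.83 that included 1. In fibroblasts 28.1% of cells with Sulf1 had Cd44, against 26.2% of those without. The subsets, described below, mixed clusters that differed in both genes. Cluster 4 (Sulf1 at 11.5, Cd44 at 2.42) held 76.2% of Tmem163 or Kcnh1 cells and 15.9% of Prox1 or Kif26b cells. Cluster 5 (Sulf1 at 1.61, Cd44 at 0.170) held 12.7% and 72.7%. The part of this mix in the shares was not tested. These shares describe cells of 1 pooled matrix, whose libraries are not named.

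Endothelial cells were then split by 3 pairs of genes: Prox1 and Kif26b, where Prox1 encodes a transcription factor of lymphatic and valve endothelium, Tmem163 and Kcnh1, and Selp and Fmo2, where Selp encodes the adhesion molecule P-selectin. A cell belonged to a subset if it had UMIs of at least 1 gene of that pair and of neither other pair, which placed 4783 of 8966 cells. Another 2605 had UMIs of several pairs and 1578 of none. As whole subsets, Sulf1, Cd44, Sdc4 and Sulf2 were all highest with Tmem163 or Kcnh1, and all but Sdc4 were lowest with Prox1 or Kif26b. This order did not hold for each gene of a pair. Cells with Kcnh1 alone had Sulf1 at 6.96 and Cd44 at 0.806, below Selp alone (9.75 and 1.63) and above Fmo2 alone (4.94 and 0.732). Cells with Prox1 alone had Sulf1 at 4.89 and Cd44 at 0.845. The largest ratio between 2 subsets was 1.17 for Ext2 and 1.34 for Hs6st1.

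The 726 Tmem163 or Kcnh1 cells had a Sulf1 level of 9.54 (9.26 to 9.82), against 5.17 in 1342 Selp or Fmo2 cells and 2.66 in 2715 Prox1 or Kif26b cells. Their Cd44 level was 2.20 (2.07 to 2.34), near the 2.13 of fibroblasts, against 0.719 and 0.503. Sdc4 was at 0.649 (0.578 to 0.727), against 0.313 and 0.319, and Sulf2 at 4.67 (4.47 to 4.87), against 3.66 and 2.87. Set against both other subsets, 3 of 6 genes were at least 2-fold higher, beside 4.53% of 1942 genes higher, 6.54% lower and 11.1% in either direction. The ratios were 2.78 for Sulf1, 3.86 for Cd44 and 2.05 for Sdc4, and in the second barcode run, with 35 such cells, they were 2.06, 2.32 and 1.41, and that of Sulf2 was 2.07. The Sdc4 ratio was also under 2, at 1.83, where each cell was given to the pair with the most UMIs. The list of cardiomyocyte genes, 4 of 6 in the matrix, summed to 2.92 in these cells, with 1 of the 4 at 0, and to 1.08 and 1.21 in Prox1 or Kif26b cells and Selp or Fmo2 cells. Its part in the result was not tested.

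Prox1 or Kif26b cells were lowest in Sulf1 and Cd44. The 2.59-fold gap in Sulf1 to the other subsets (2.5 to 2.69) and the 2.6-fold gap in Cd44 (2.38 to 2.83) put 2 of 6 genes on the lower side and none on the higher, beside 6.02% of all genes lower, 3.04% higher and 9.06% in either direction. Both gaps were seen in each barcode run, at 2.45-fold and 2.90-fold for Sulf1 and 2.83-fold and 2.01-fold for Cd44. Selp or Fmo2 cells differed from the other subsets by less than 2-fold in all 6 genes, beside 3.96% of all genes higher, 3.24% lower and 7.21% in either direction. In the second run alone, Sulf1 was 2.54-fold higher in them (2.3 to 2.8), against 1.07-fold in the first. Cd44 turned direction between runs, with a ratio of 0.665 in the first (0.591 to 0.746) and 1.64 in the second (1.34 to 2.01). This count depended on how the subset was drawn. In cluster 7, the cluster with the highest levels of both Selp and Fmo2, Sulf1 was at 2.34, Cd44 at 0.177 and Sdc4 at 0.194, and those 3 genes were then at least 2-fold lower than in clusters 4 and 5 pooled. The difference lay with cluster 4, since cluster 5 had Sulf1 at 1.61, Cd44 at 0.170 and Sdc4 at 0.192. By the marker rule, 65.1% of Selp or Fmo2 cells lay in cluster 7 and 21.4% in cluster 4. The fibroblast list summed to 1.69 in Selp or Fmo2 cells, against 0.303 and 0.217 in the other subsets, and Col3a1 was found in 44.2% of the cells of cluster 7. Their part in the result was not tested.

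Levels also differed between the genes of a pair, in a split made after their values were seen. Among Tmem163 or Kcnh1 cells, the 283 with Tmem163 alone had a Cd44 level of 3.94 (3.67 to 4.22), and the 406 with Kcnh1 alone had 0.806 (0.695 to 0.929), a ratio of 4.89 (4.17 to 5.76). Sulf1 was also higher with Tmem163, at 12.7 against 6.96 (1.83-fold, 1.72 to 1.94). Sulf2 went the other way, at 3.39 against 5.92, so that Kcnh1 cells were 1.75-fold higher (1.59 to 1.92). The Cd44 ratio was 5.04 in the first barcode run and 4.0 in the second, which held 7 and 28 of these cells. The genes of the pair were spread differently over the clusters described below. Tmem163 was at 1.22 in cluster 4 and 0.0144 in cluster 5, and Kcnh1 at 1.09 and 0.426. The part of cluster make-up in these ratios was not tested.

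In the Prox1 and Kif26b pair, cells with both genes had the lowest Sulf1 and Sulf2 levels. Their Sulf1 level was 0.616 (0.559 to 0.676) in 1148 cells, against 2.31 with Kif26b alone and 4.89 with Prox1 alone. Their Sulf2 level, 2.19 (2.09 to 2.31), was the lowest of the 9 sets of cells, whose highest was the 5.92 of Kcnh1 alone. Cd44 was at 0.236 with both genes, 0.272 with Kif26b alone and 0.845 with Prox1 alone. The first 2 intervals overlapped, and their order turned in the second run, with 0.377 and 0.0526. Prox1 was at 1.12 in cluster 4, where Sulf1 was at 11.5, and at 5.17 in cluster 5, where Sulf1 was at 1.61. Kif26b was at 0.184 and 7.49 in those clusters. The part of cluster make-up in these levels was not tested. In the Selp and Fmo2 pair, the 120 cells with Selp alone had Sulf1 at 9.75 and Cd44 at 1.63, against 4.94 and 0.732 in the 849 cells with Fmo2 alone and 3.92 and 0.354 in the 373 cells with both genes. For Sulf1, cells with Selp alone and with both genes had 10.0 and 3.26 in the first run and 7.86 and 6.59 in the second, which held 11 and 53 of these cells.

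**Figure D4:**
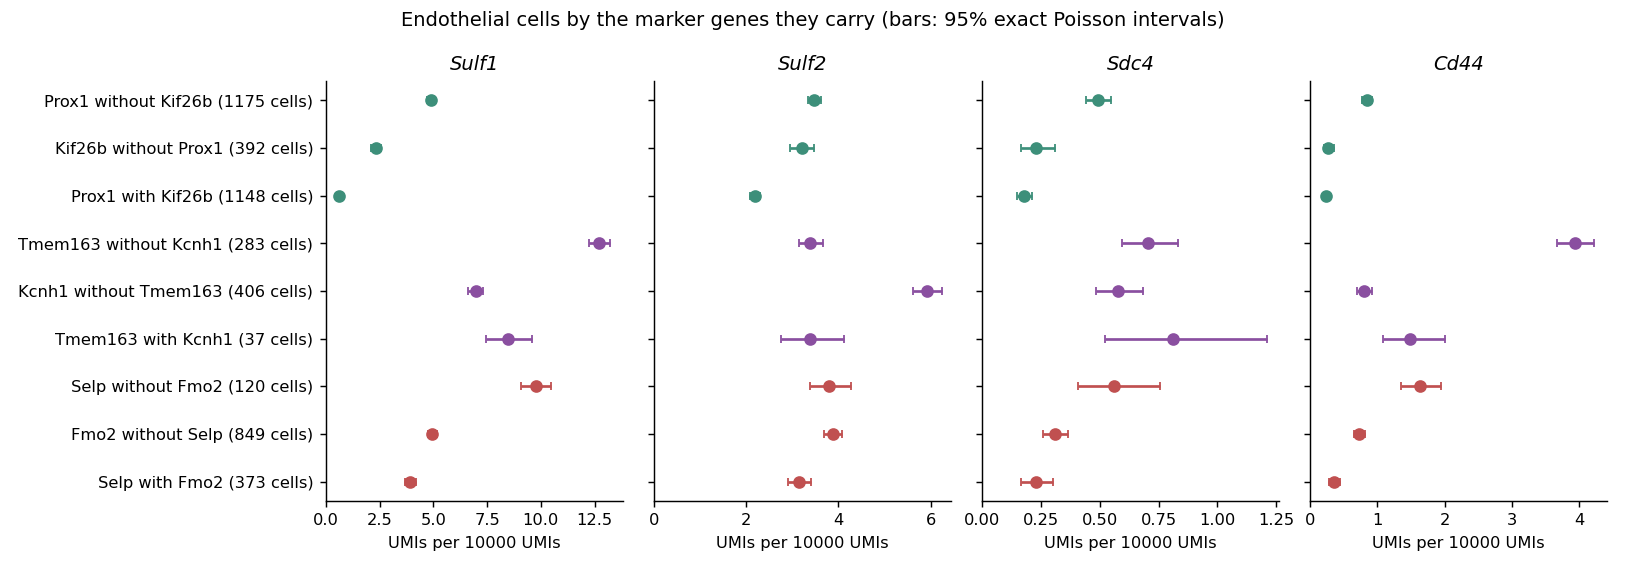
Levels of Sulf1, Sulf2, Sdc4 and Cd44 (UMIs per 10000 UMIs, horizontal axes) in endothelial cells with UMIs of 1 pair of genes only, by the gene or genes of that pair they carried, with 95% exact Poisson intervals. Cd44 was at 3.94 with Tmem163 alone and 0.806 with Kcnh1 alone, while Sulf2 was at 3.39 and 5.92.

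Cd44 and Sulf2 differed in opposite directions among fibroblasts. Subsets were drawn by Prg4 and Fmod, matrix genes of lubricin and fibromodulin, and by Scn7a and Sfrp2. The 1641 cells with only the former pair had a Cd44 level of 2.63 (2.53 to 2.73), 3.20-fold that of the 503 cells with only the latter pair (2.83 to 3.63), whose level was 0.821. Sulf2 was reversed, at 0.261 and 0.873, a gap of 3.35-fold (2.84 to 3.95), and remained below every endothelial subset in both. Tnfaip6 was at 0.275 with Prg4 or Fmod and 0.479 with Scn7a or Sfrp2 (1.74-fold, 1.43 to 2.11), and the latter stood at 0.379 in the first barcode run and 1.01 in the second. Sulf1 was at 1.99 and 2.62, while the ratios of Ext2, Hs6st1 and Sdc4 had intervals that included 1.

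Of the 470 Ptprc cells, 303 had a UMI of Mrc1, which encodes the mannose receptor of macrophages. Hs6st1 was 2.38-fold higher with Mrc1 (1.49 to 3.99), at 0.683 against 0.287, from 116 and 21 UMIs. Sulf1 was 3.46-fold lower with Mrc1 (2.39 to 5.03), at 0.300 against 1.04, and in the second run the level with Mrc1 was 0.727. Cd44 was high in both, at 5.79 and 6.87.

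Cells outside the 3 groups carried the genes as well. The 3377 cells that met no rule had a Sulf1 level of 7.04 (6.91 to 7.17), above that of endothelial cells, Cd44 at 2.81 and Tnfaip6 at 0.108, and 1309 of them lay in cluster 1 and 1122 in cluster 4. The 421 cells with fibroblast genes and Egfl7 stood between fibroblasts and endothelial cells in Sulf1 (3.22), Sulf2 (1.56), Cd44 (1.45) and Tnfaip6 (0.203), with a median of 8709 UMIs. The 110 cells with both Mlph and Pax3, genes of pigment cells, had Cd44 at 3.74 (3.26 to 4.28) and Sulf2 at 0.479.

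Clusters of all cells were made without the 7 genes, and Sulf1 and Sdc4 had higher levels in single clusters than in any of the 3 groups. Sulf1 reached 11.5 (11.4 to 11.7) in cluster 4, the cluster with the highest levels of Tmem163 and Kcnh1, and 1.61 in cluster 5, that of Prox1 and Kif26b. Cd44 was at 2.42 in cluster 4 and 2.40 in cluster 8, and at 0.170 and 0.177 in clusters 5 and 7, below every other cluster of at least 50 cells. Sdc4 had its highest level, 1.31 (1.22 to 1.41), in cluster 8, a set of 669 cells with a median of 9086 UMIs, of which 81.8% had an Egfl7 UMI and 260 were in the second barcode run. Tnfaip6 was at 0.317 and 0.368 in the fibroblast clusters 1 and 2, and at most 0.00497 in clusters 4, 5, 7 and 8.

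**Figure D5:**
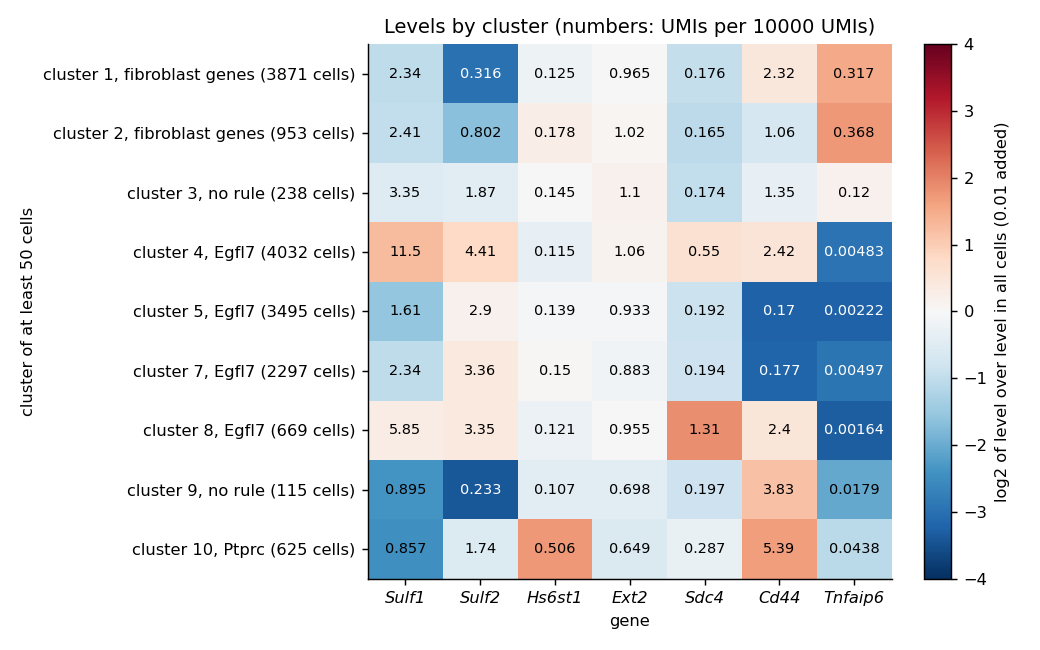
Level of each gene (numbers, UMIs per 10000 UMIs) in the 9 clusters of at least 50 cells, named by the marker genes of the cell rules, with colour for the log2 ratio to the level in all cells (0.01 added to both). Sulf1 was highest in cluster 4, Sdc4 in cluster 8, Cd44 and Hs6st1 in cluster 10 and Tnfaip6 in cluster 2.

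Other genes of the same pathways were read from lists drawn up from general knowledge. A listed gene outside the 3264 genes used has no value here, which is not a finding that it was undetected. The matrix held 6 of the 30 hyaluronan genes listed. All 6 were at least 2-fold higher in fibroblasts than in endothelial cells, beside 17.1% of all genes with enough UMIs. Their median log2 ratio was 4.93, beside 0.04 over all those genes. Besides Cd44 and Tnfaip6 they were Itih5 and Itih2, which encode heavy chains of inter-alpha-inhibitors, Ptx3, which encodes pentraxin 3, a partner of those chains in hyaluronan matrix, and Bcan, which encodes the hyaluronan-binding proteoglycan brevican. Tnfaip6, Ptx3, Bcan and Itih2 had enough UMIs only through fibroblasts. The median lies between the log2 ratios of Itih2 (4.23) and Ptx3 (5.62), so it rests on that filter. Of the genes counted, only Cd44 and Itih5 passed it without fibroblasts. Cd44 lay close to the 2-fold mark and fell under it in some alternatives. Itih5 had a level of 1.65 in fibroblasts and 0.409 in endothelial cells, a ratio of 4.03 (3.82 to 4.26), with 3.41 in the first run and 12.7 in the second. Ptx3 was at 0.0823 and 0.00167, from 172 and 9 UMIs, a ratio of 49.2 (25.3 to 109), and all 9 endothelial UMIs were in the first run. Bcan was at 0.124 and 0.00205, from 259 and 11 UMIs, a ratio of 60.6 (33.3 to 123), with 71.4 in the first run and 19.4 in the second, from 12 and 3 UMIs. Itih2 was at 0.0665 and 0.00353, a ratio of 18.8 (11.6 to 32.2). In the runs the ratio was 21.1 and 10.7, the latter from only 11 and 5 UMIs. Against Ptprc cells, 5 of the 6 were higher in fibroblasts and Cd44 was lower, beside 22.6% of all genes higher and 15.9% lower. In Ptprc cells, Ptx3 had 1 UMI, Itih2 and Bcan 3 each, Tnfaip6 11 and Itih5 62. All 5 higher genes thus had enough UMIs only through fibroblasts, so their count rests on that filter.

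Among fibroblasts, Ptx3 was at 0.0966 in Prg4 or Fmod cells and 0.0348 in Scn7a or Sfrp2 cells, and Bcan at 0.164 and 0.0464. That is the order of Cd44 and not of Tnfaip6, but it rests on few UMIs in the 503 Scn7a or Sfrp2 cells. Levels of Itih5 and Itih2 in these subsets are not given here. Of the 39 listed genes that make or edit heparan sulfate, 5 were in the matrix, the 4 described and Fam20b, the kinase of the linker sugar, whose levels in fibroblasts and endothelial cells were 0.299 and 0.292 (ratio 1.02, 0.931 to 1.12). None of the 5 was higher in fibroblasts and 2 were lower, Sulf1 and Sulf2, beside the 14.7% of all genes. Of the 17 genes listed under core proteins, which include the receptor gene Nrp2, 3 were in the matrix. Of these, 1 was higher in fibroblasts and 2 were lower, beside 17.1% and 14.7% of all genes. Gpc1, which encodes glypican-1, was 7.49-fold higher in fibroblasts (5.30 to 10.8), at 0.0627 and 0.00837, from 131 and 45 UMIs. It had enough UMIs only through fibroblasts. The ratio was 7.61 in the first run and 4.16 in the second, the latter from only 6 and 7 UMIs. Nrp2, which encodes the semaphorin and growth factor receptor neuropilin-2, was lower in fibroblasts, at 0.209 against 0.760. Like Sdc4, Nrp2 was higher in Tmem163 or Kcnh1 cells, at 1.48, than in Selp or Fmo2 cells, at 0.832, and Prox1 or Kif26b cells, at 0.327.

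The genes with the most similar patterns were sought among 2514 genes of at least 100 UMIs, by Pearson's r of log2(level + 0.01) over the 9 clusters, which is given as a description of clusters from 1 pooled matrix. For Tnfaip6 they were Dnm3os (r = 0.988), Pi15 (0.982) and Frzb (0.982). For Sulf2 they were Lmo2 (r = 0.980), Pigt (0.967) and 4931422A03Rik (0.957), and for Sulf1 Efna4 (r = 0.923), Fam189b (0.902) and Gm32250 (0.902). For Hs6st1 they were P2ry12 (r = 0.979), Icos (0.976) and Iqgap3 (0.973), and for Ext2 Tnks1bp1 (r = 0.935), Pth2r (0.922) and Gm14022 (0.902). For Sdc4 they were Trp53rka (r = 0.969), 2900097C17Rik (0.965) and Ptma (0.944), and for Cd44 Cnnm4 (r = 0.966), Bend6 (0.942) and Zmat3 (0.903). With 15 finer clusters, 2 of the 3 names returned for Cd44, 1 each for Sulf1, Sulf2 and Tnfaip6, and none for Hs6st1, Ext2 or Sdc4.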

How the data were processed

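The samples were labelled as single cells of mitral valve, captured in droplets. According to the labels and methods, reads were processed with Cell Ranger (version 7.1.0, build mm10), cells and genes were filtered in Seurat, and values were normalized with LogNormalize. Each value deposited by the authors is the natural log of a scaled count plus 1, where the scaling sets the cell's total to 10000 UMIs. Whether counting used strand or introns is not given in the sources used here.

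UMIs and totals were recovered as whole numbers within 0.02 for 100% of values. The matrix lists 3265 genes, and 3264 were used, on chromosomes 1, 2 and 3. Genes elsewhere were not analysed here. By symbol, 3244 matched GENCODE M21. The members and lists were chosen with earlier results of these data known. Levels have exact Poisson intervals, ratios exact conditional binomial intervals, and shares exact binomial intervals after thinning, which left out 1278 cells under 2000 UMIs. A gene with 0 UMIs in a group was set to 3 UMIs in a ratio. No count model or test was fitted, since the pooled matrix has no replicates. No columns were left unused. No doublet caller was run, and cells with fibroblast genes and Egfl7 were kept apart.

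Cells were clustered by Leiden (resolution 0.5, and 1.0 as an alternative; scanpy 1.11.5), with the 7 genes left out. Genes named are the 7, the listed pathway genes, markers, and the 3 most similar genes per member. The steps were tested on simulated data. Alternatives were other scalings, groupings, depths, subset rules and each barcode run alone. Subsets taken from clusters, leaving out cells with a Ptprc UMI or barcodes of both runs, and the split of pairs into single genes were added after the data were seen. Python 3.11.15, numpy 2.4.6, scipy 1.17.1, pandas 2.3.3 and matplotlib 3.10.9 were used.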

Additional observations from a re-analysis of the deposited data

How the results depend on the processing

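Of 63 recomputed counts of genes past 2-fold, 59 stayed within 1.5 times the value in the report and 4 did not. Between fibroblasts and endothelial cells the count was 5 over all cells and 3 in the second barcode run alone, where Sulf1 and Sdc4 differed by less than 2-fold. For Selp or Fmo2 cells against the other subsets the count was 0, and it became 1 in the second run alone, 1 where both genes of the pair were required, each time with Sulf1 higher, and 3 with subsets from clusters, with Sulf1, Sdc4 and Cd44 lower. Where both genes were required, 1148 of the 1185 cells of the other subsets carried Prox1 with Kif26b. No cause of these changes in the count was tested. No ratio past 2-fold over all cells by the marker rules turned its direction. For Selp or Fmo2 cells, where the Sulf1 ratio was 1.22, it ran from 0.318 to 4.23. In all, 33 of 395 recomputed ratios changed their side of the 2-fold mark or, under it, their direction. Cd44 in fibroblasts over endothelial cells ranged from 1.56 to 3.01, Sulf1 from 0.372 to 0.936 and Tnfaip6 from 19.9 to 126. Shares of cells moved with the depth they were thinned to, by more than their intervals in 39 of 42 cases. No paired analysis was possible because barcodes name no sample and no result comes from a test. The main limits are the single pooled matrix, unlabelled runs, and 470 Ptprc cells, in which Tnfaip6 rests on 11 UMIs.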
